A study of Mus musculus with 19 samples.

Results

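The 10 genes described here encode the signalling chains of the T cell receptor complex (Cd3d, Cd3e, Cd3g and Cd247), the coreceptors CD4 and CD8 (Cd4, Cd8a and Cd8b1) and the kinases and adaptor that act directly below the receptor (Lck, Zap70 and Lat). They were taken by gene symbol from the 27179 genes listed for splenocyte RNA-seq of 19 mice of the FCG model (4 core genotypes). All 10 were found, and all 10 were among the 14186 genes that reached at least an RPKM of 0.5 (reads scaled to gene length and to library size) in at least 4 mice.

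In FCG mice the testis-determining gene Sry is deleted from the Y chromosome and supplied as a transgene on chromosome 3, so that the gonads no longer follow the sex chromosomes. The 4 groups were XX mice with ovaries (XXF, n = 5), XY mice with ovaries (XYF, n = 4), XX mice with testes (XXM, n = 5) and XY mice with testes (XYM, n = 5). Their sires were B6.Cg-Tg(Sry)2Ei Srydl1Rlb/ArnoJ mice, and their dams were C57BL/6J. Every mouse was immunized with heat-killed Streptococcus pneumoniae (HKSP) and spleens were taken 1 week later, so there was no unimmunized group, and age was not given in the sources used here. This model has limits: all mice with testes carry the transgene, and ovaries, or testes, need not be alike in XX and XY animals. The comparisons ask what gonadal sex (XXM with XXF, XYM with XYF) and sex chromosome complement (XXF with XYF, XXM with XYM) do to these transcripts, and each group serves in more than 1 of them.

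A T cell recognises peptide on MHC molecules through its clonotypic alpha and beta chains, which cannot signal by themselves and depend on the CD3 gamma, delta and epsilon chains and on the CD247 (zeta) chain. CD4 binds MHC class II and marks helper and regulatory T cells, while CD8, usually a pair of alpha and beta chains, binds MHC class I and marks cytotoxic T cells. Both coreceptors bring the kinase LCK to the receptor, LCK phosphorylates the CD3 and zeta chains, ZAP70 docks there, and ZAP70 then phosphorylates the adaptor LAT, on which further signalling proteins assemble. In the mouse spleen Cd4 and Cd8a are also transcribed by some dendritic cells, whereas Cd8b1 is largely a T cell transcript.

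Libraries held between 11263753 and 19962022 reads on genes, as recovered from the steps between the values, and at least 439 reads stood behind each value of a member. Mice XYF F9 and XYM 9 stood apart from the rest of their groups: the 8 neutrophil markers summed to 56182 RPKM in XYF F9 and 58274 RPKM in XYM 9, against at most 16614 RPKM in any other mouse. Transcripts of erythroid, neutrophil and immunoglobulin genes took 10.8% of reads in XYF F9 and 9.01% in XYM 9, while the next highest share was 8.38%, in XYF F6. Since RPKM is a share of the library, results are also given without these mice. The numbers in the library titles run group by group, the XXM titles alone carry an added tag whose meaning was not given, and how the libraries were distributed over preparation or sequencing runs was not given, so that a difference between groups and a difference in handling cannot be told apart. In bulk RNA, fewer T cells and less of a transcript in each T cell cannot be told apart either.

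The 3 CD3 genes lie side by side on chromosome 9 in the mouse genome build GRCm38. Cd3g (chr9:44969572-44980431, minus strand) and Cd3d (chr9:44981769-44987052, plus strand) are transcribed away from each other from starts 1337 bases apart, and Cd3e (chr9:44998735-45009663, minus strand) lies on the far side of Cd3d, with 11682 bases between these genes. Cd8b1 (chr6:71322788-71337492, plus strand) and Cd8a (chr6:71373427-71379171, plus strand) are neighbours too, with a gap of 35934 bases. Cd4 lies elsewhere on the same chromosome (chr6:124864693-124888247, minus strand). Cd247 is at chr1:165779952-165871153 (plus strand), Zap70 at chr1:36761798-36782821 (plus strand), Lck at chr4:129548344-129573641 (minus strand) and Lat at chr7:126363827-126369705 (minus strand). Exons of Cd3e overlap the antisense gene Gm48719, and exons of Cd247 overlap Gm16565 on the same strand and Pou2f1 on the opposite strand. Whether reads were counted by strand was not given, so reads of these partners cannot be told apart from those of the members. Exons of Lck and Lat also hold the microRNA genes Mir8119 and Mir7058.

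RefSeq promoters were read for 8 of the 10, with 11 start sites in GRCm38.p6. The 250 bases before the start are printed for the divergent pair Cd3g and Cd3d, for Cd8a and for the upstream start of Lck, since these genes moved together across mice, 5′ to 3′ on the strand of the gene. Capitals mark 6-letter matches, on both strands, to motifs chosen after the values were seen: the E-box letters CAGCTG or CAGGTG (or CACCTG on the other strand), the Runx letters TGTGGT (or ACCACA), the Ets letters AGGAAG (or CTTCCT), the Tcf letters CTTTGA (or TCAAAG), the Gata letters AGATAA (or TTATCT), and the TATA letters TATAAA (or TTTATA).
Cd3g, chr9:44980432-44980681, minus strand: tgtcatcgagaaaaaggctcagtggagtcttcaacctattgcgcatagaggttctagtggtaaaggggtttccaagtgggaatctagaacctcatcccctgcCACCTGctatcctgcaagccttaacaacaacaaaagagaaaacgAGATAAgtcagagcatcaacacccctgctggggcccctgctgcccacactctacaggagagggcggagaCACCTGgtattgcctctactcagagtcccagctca
Cd3d, chr9:44981536-44981785, plus strand: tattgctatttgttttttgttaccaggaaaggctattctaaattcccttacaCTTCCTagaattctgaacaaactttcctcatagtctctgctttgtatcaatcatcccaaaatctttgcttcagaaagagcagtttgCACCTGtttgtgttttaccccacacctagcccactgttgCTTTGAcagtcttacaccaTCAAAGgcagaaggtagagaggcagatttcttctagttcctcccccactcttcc
Cd8a, chr6:71373177-71373426, plus strand: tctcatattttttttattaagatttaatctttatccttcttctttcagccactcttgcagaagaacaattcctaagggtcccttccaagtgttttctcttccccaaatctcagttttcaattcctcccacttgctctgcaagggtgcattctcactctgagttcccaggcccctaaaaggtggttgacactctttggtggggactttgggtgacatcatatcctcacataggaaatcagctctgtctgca
Lck, chr4:129573642-129573891, minus strand: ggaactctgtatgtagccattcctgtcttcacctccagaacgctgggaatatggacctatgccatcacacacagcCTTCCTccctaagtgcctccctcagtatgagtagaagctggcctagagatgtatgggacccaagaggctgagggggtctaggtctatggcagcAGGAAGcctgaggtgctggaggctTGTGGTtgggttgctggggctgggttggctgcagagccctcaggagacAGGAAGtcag
Cd3g held 2 E-box matches and 1 Gata match, and Cd3d held 1 E-box, 1 Ets and 2 Tcf matches. The upstream Lck start had 3 Ets matches and 1 Runx match, and none of the searched letters were in the Cd8a window. Over all 11 start sites, E-box letters were in 6 and Ets letters in 8, against 27.7% and 29.5% of 32851 mouse promoters of the same length. Runx letters were in 2 (14% of all promoters), Tcf letters in 2 (13.8%), Gata letters in 1 (9.99%) and TATA letters in 0 (12.4%). A match describes the letters and says nothing of binding.

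The CD3 genes were the most abundant of the 4 signalling chains. Cd3g, the gamma chain, was at 209, 358, 298, 241 and 286 RPKM in XXF F1 to F5 and at 238, 329, 227 and 105 RPKM in XYF F6 to F9. In mice with testes it was at 99.5, 106, 90.5, 65.1 and 62.0 RPKM in XXM 2, 5, 6, 7 and 8, and at 97.8, 93.0, 137, 94.8 and 58.1 RPKM in XYM 12, 13, 15, 16 and 9. Every XXF mouse thus lay above every XXM mouse, and XYF F9 was the low mouse that brought the XYF range into that of the males. Cd3d and Cd3e followed the same order. Cd3d, the delta chain, averaged 185 ± 51.2 RPKM in XXF (SD, n = 5), 144 ± 66.2 in XYF (SD, n = 4), 56.8 ± 26.0 in XXM (SD, n = 5) and 62.4 ± 24.1 in XYM (SD, n = 5). Cd3e, the epsilon chain, averaged 166 ± 24.6, 122 ± 32.9, 57.0 ± 11.2 and 71.5 ± 18.9 RPKM in the same groups. Cd247, whose zeta chain carries most of the phosphorylation motifs of the complex, was lower throughout at 34.1 ± 4.15, 23.5 ± 8.54, 11.8 ± 1.91 and 11.8 ± 3.44 RPKM.

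Differences were tested with limma across all 14186 genes on log2(RPKM + 1) values. A gene was called at a Benjamini-Hochberg adjusted p below 0.1 and a change of more than 1.5-fold. All 4 CD3 and zeta genes were lower in XXM than in XXF, with log2 differences of -1.72 for Cd3g (standard error 0.26, adjusted p = 0.000501), -1.75 for Cd3d (0.35, 0.00455), -1.53 for Cd3e (0.21, 0.000138) and -1.46 for Cd247 (0.22, 0.000469). They were also lower in XYM than in XYF, with log2 differences of -1.16 for Cd3g (standard error 0.28, adjusted p = 0.00822), -1.12 for Cd3d (0.37, 0.0324), -0.76 for Cd3e (0.22, 0.0179) and -0.91 for Cd247 (0.24, 0.012). The Cd3d call in XY mice was lost without XYF F6 (adjusted p = 0.108) or XYF F7 (adjusted p = 0.103), with adjusted p between 0.00755 and 0.108 over all settings. None of the 4 passed the thresholds when XX was compared with XY within females or within males.

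**Figure D1:**
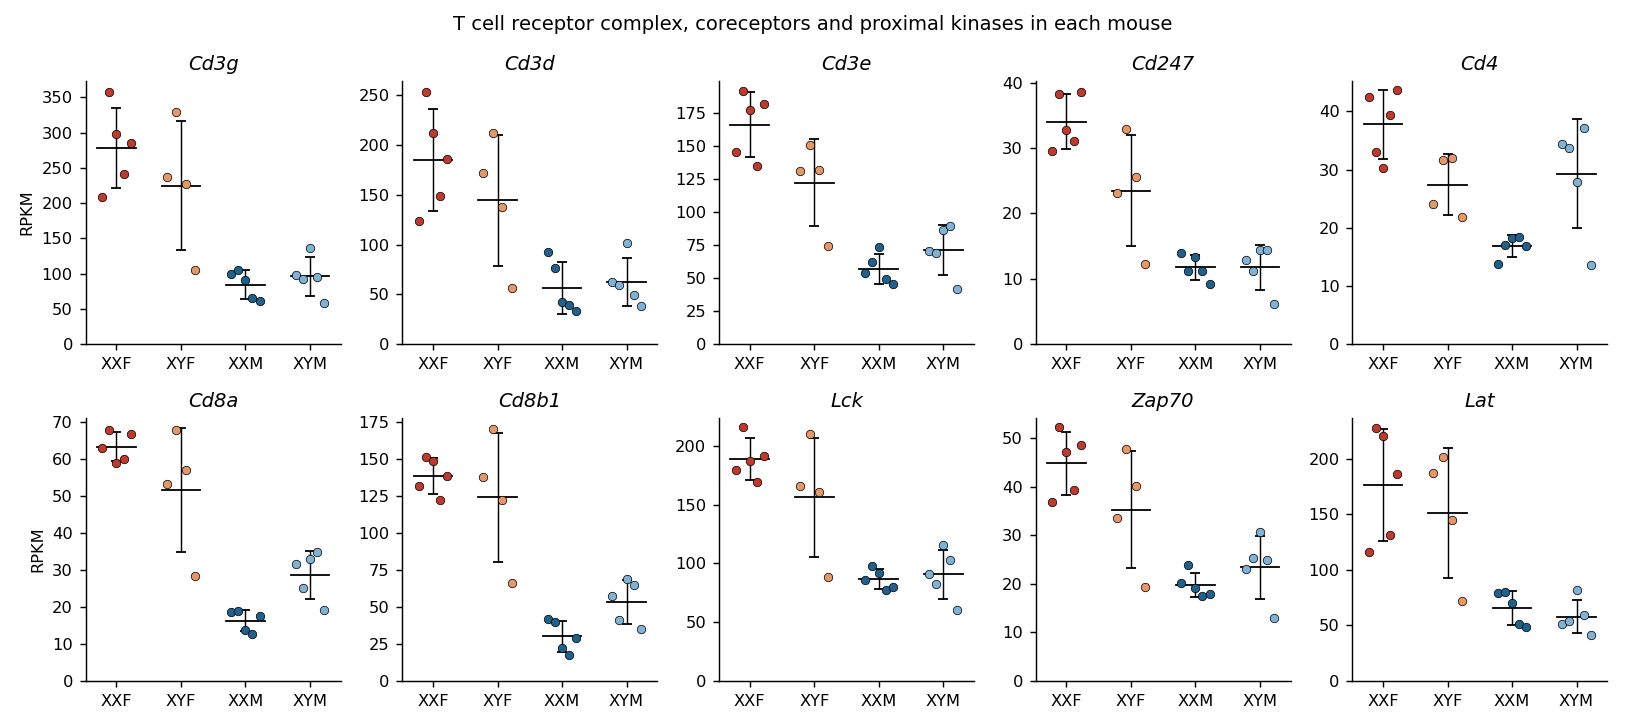
Level of each of the 10 genes in RPKM (vertical axis, starting at 0) in every mouse, by group. Points are mice, horizontal lines group means and bars SD; XXF mice lie above all XXM mice for every gene, and Cd4 is the gene whose XYM mean, 29.3 RPKM, is above its XYF mean, 27.4 RPKM.

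Cd4, the coreceptor of helper T cells, was at 42.5, 33.1, 30.2, 39.4 and 43.7 RPKM in XXF F1 to F5 and at 24.0, 31.7, 32.0 and 21.9 RPKM in XYF F6 to F9. It was at 13.8, 17.1, 18.3, 18.5 and 16.9 RPKM in XXM 2, 5, 6, 7 and 8, and at 34.3, 33.7, 27.8, 37.1 and 13.6 RPKM in XYM 12, 13, 15, 16 and 9. The XXM mice were low as a group, and 4 of the 5 XYM mice were within the female range, XYM 9 being as low as the XXM mice. The log2 difference was -1.11 between XXM and XXF (standard error 0.21, adjusted p = 0.00274 in limma) and 0.04 between XYM and XYF (0.22, adjusted p = 0.912), a value whose sign turned with median ratio rescaling (-0.02).

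Cd8a, the alpha chain of CD8, was at 63.0, 67.7, 58.9, 60.0 and 66.8 RPKM in XXF F1 to F5 and at 53.3, 67.9, 57.1 and 28.3 RPKM in XYF F6 to F9. It was at 18.5, 18.9, 13.7, 12.7 and 17.6 RPKM in XXM 2, 5, 6, 7 and 8, and at 31.7, 25.1, 32.8, 34.9 and 19.1 RPKM in XYM 12, 13, 15, 16 and 9. All XXM mice were below all other mice, and XYM 9 was the lowest XYM mouse by a small margin over the highest XXM mouse. Cd8b1, the beta chain, was at 132, 151, 148, 122 and 138 RPKM in XXF F1 to F5 and at 137, 170, 122 and 66.1 RPKM in XYF F6 to F9. It was at 41.6, 39.8, 22.3, 17.7 and 28.8 RPKM in XXM 2, 5, 6, 7 and 8, and at 57.2, 40.9, 69.1, 65.0 and 35.2 RPKM in XYM 12, 13, 15, 16 and 9. XXM mice were again the low group, here with XYM 13 and XYM 9 inside their range. On average Cd8b1 was 4.60-fold lower in XXM than in XXF, the largest ratio of group means among the 10 genes in that comparison, and Cd8a was 3.89-fold lower.

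Both CD8 genes were lower in males on each sex chromosome background. In XX mice the log2 difference was -1.91 for Cd8a (standard error 0.20, adjusted p = 8.21e-06 in limma) and -2.23 for Cd8b1 (0.25, adjusted p = 1.94e-05). In XY mice it was -0.79 for Cd8a (0.21, adjusted p = 0.0124) and -1.16 for Cd8b1 (0.27, adjusted p = 0.00672).

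The 3 proximal signalling genes fell with the receptor chains. Lck averaged 189 ± 17.5 RPKM in XXF (SD, n = 5), 156 ± 50.4 in XYF (SD, n = 4), 86.7 ± 8.43 in XXM (SD, n = 5) and 90.6 ± 21.1 in XYM (SD, n = 5). Zap70 averaged 44.9 ± 6.49, 35.3 ± 12.1, 19.8 ± 2.55 and 23.4 ± 6.46 RPKM, and Lat 176 ± 50.7, 151 ± 58.3, 65.9 ± 15.1 and 57.6 ± 14.9 RPKM in the same groups. For all 3 the male groups were close to each other and the lowest female was XYF F9. In XX mice the log2 differences between males and females were -1.11 for Lck (standard error 0.19, adjusted p = 0.00121 in limma), -1.14 for Zap70 (0.21, 0.00313) and -1.39 for Lat (0.27, 0.00353). In XY mice they were -0.75 for Lck (standard error 0.20, adjusted p = 0.0134), -0.55 for Zap70 (0.23, 0.0741), which missed the fold threshold, and -1.31 for Lat (0.28, 0.00485). The Lck value in XY mice fell just under the fold threshold with quantile normalization (-0.57) and without XYF F7 (-0.58), and Zap70 passed it without XYF F9 (-0.80), XYM 13 (-0.59) or XYM 15 (-0.66) and without both XYF F9 and XYM 9 (-0.62). Zap70 also passed with median ratio rescaling (-0.61) and with rescaling to reads outside erythroid, neutrophil and immunoglobulin genes (-0.59), and was -0.36 without XYM 9 alone.

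Among the members, 10 of 10 members were called lower in XXM than in XXF, where 2.91% of all 14186 genes were called lower, and for all 10 every XXM mouse was below every XXF mouse, as for 5.15% of all genes. In XY mice 8 of 10 were called lower in XYM than in XYF, against 8.13% of all genes. The groups overlapped for each member, while 3.86% of all genes were lower in XYM without overlap. Averaged over XX and XY, 9 of 10 were lower in males, against 5.36% of all genes, and Cd4 had an adjusted p of 0.0142 but a log2 difference of -0.54, within the fold threshold. The median log2 difference over the 10 members was -1.50 in XX mice, -0.85 in XY mice and -1.27 over both, while the median over all genes was -0.01, 0.02 and 0.02. Without both XYF F9 and XYM 9 the number called lower was 10 in XX mice, 9 in XY mice and 9 over both.

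**Figure D2:**
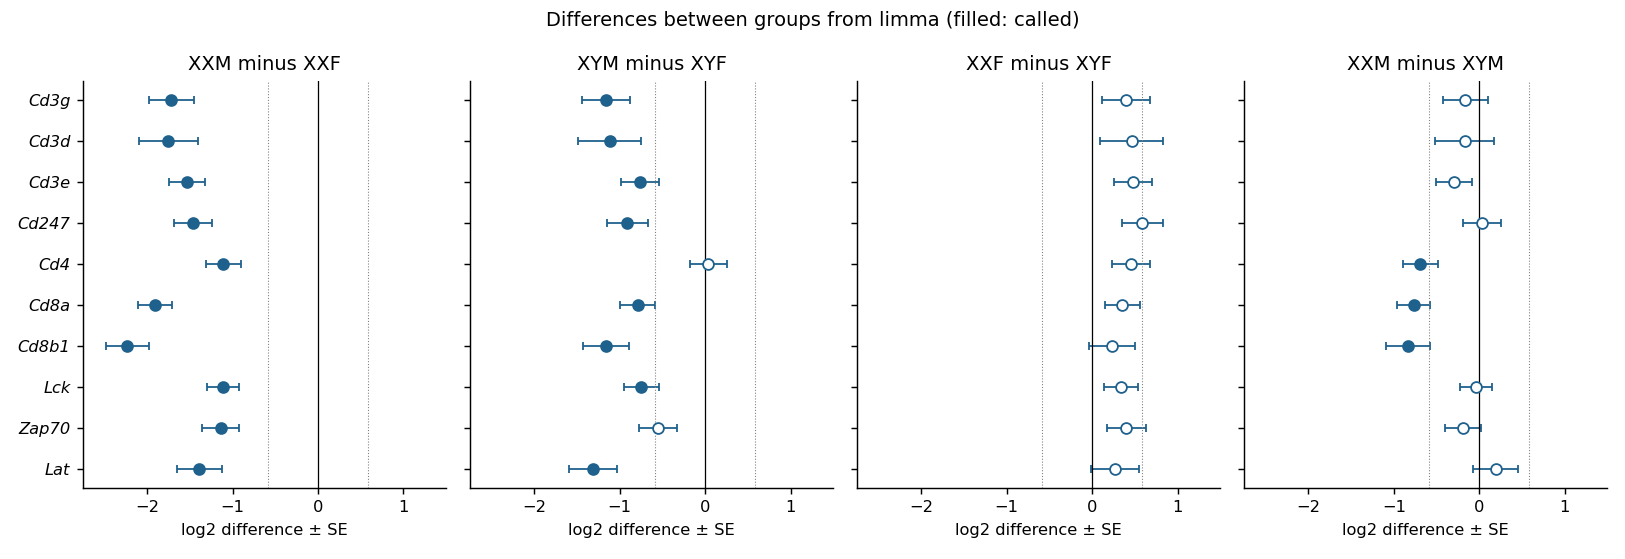
Log2 difference of each gene with its standard error from limma (horizontal axis) in the 4 pairwise comparisons. Filled points were called, dotted lines mark the fold threshold; all 10 genes were called lower in XXM than in XXF, 8 lower in XYM than in XYF, none between XXF and XYF, and Cd4, Cd8a and Cd8b1 lower in XXM than in XYM.

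Fewer members were called for sex chromosome complement. In mice with testes Cd4, Cd8a and Cd8b1 were lower in XXM than in XYM, 3 of 10 members against 1.83% of all genes called lower. The log2 differences were -0.69 for Cd4 (standard error 0.21, adjusted p = 0.0842 in limma), -0.77 for Cd8a (0.20, 0.0621) and -0.83 for Cd8b1 (0.25, 0.0863), and the group means differed 1.73-fold, 1.76-fold and 1.78-fold. For Cd8a every XXM mouse was below every XYM mouse, as for 1.80% of all genes. The other 7 members lay between -0.30 (Cd3e, adjusted p = 0.349) and 0.19 (Lat, adjusted p = 0.645), with a median over all 10 of -0.18, against 0.01 over all genes. With each mouse left out, Cd3e ranged from -0.47 to -0.20 and Lat from 0.09 to 0.33. These 3 calls were close to the threshold: none was made at an adjusted p threshold of 0.05 or without any of XXM 2, XXM 5, XXM 6, XYM 12, XYM 13 or XYM 16, and 1 was made without XXF F5, with the compared groups alone or with no filter. It was 2 without XXF F4 or XXM 7. Without XYM 9, all 3 were called. Markers of other cell types were called higher in XXM than in XYM, where 1.13% of all genes were called higher. These were 5 of 10 NK cell, 2 of 9 erythroid, 2 of 8 dendritic cell and 1 of 10 B cell genes. With each mouse left out the counts were 1 to 7, 0 to 6, 1 to 2 and 0 to 2. Their part in the lower coreceptor values of XXM was not tested.

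In mice with ovaries no member was called between XXF and XYF by limma, where 1.38% of all genes were called in either direction, and 2 of 10 had an unadjusted p below 0.05. All 10 values were above 0, from 0.23 for Cd8b1 (standard error 0.27) to 0.59 for Cd247 (0.24, adjusted p = 0.208), with a median of 0.40 against 0.06 over all genes. XYF F9 weighed on these values: without it Cd8b1 was at -0.04 and Cd247 at 0.32. Without XYF F7 Cd247 was called (0.77, adjusted p = 0.0721; 0.0721 to 0.613 over all settings). Averaged over both gonadal sexes, 0 of 10 members were called between XX and XY mice, against 1.72% of all genes, and 0 had an unadjusted p below 0.05 in limma. limma-voom on recovered reads also called 0 of 10 in both of these comparisons.

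The difference between the sex chromosome effects in females and in males was tested as an interaction (XXF minus XYF, less XXM minus XYM). It was largest for the coreceptors, at 1.14 for Cd4 (standard error 0.30, adjusted p = 0.131 in limma), 1.12 for Cd8a (0.29, 0.13) and 1.07 for Cd8b1 (0.37, 0.147), and smallest for Lat, at 0.08 (0.39, 0.921). None of the 10 was called, as against 0.0846% of all genes, and 4 had an unadjusted p below 0.05, Cd3e (0.77, adjusted p = 0.168) being the one outside the coreceptors. limma-voom called 0. The outcome depended on the mice: 6 members were called without XYM 9, 3 without both XYF F9 and XYM 9, and 2 without XXF F3, XYF F8 or XYM 15, while array weights, which give less weight to mice that stand apart, gave 4. Among these Cd4 had an adjusted p of 0.00677 without XYM 9 and of 0.00949 without both mice, in a range from 0.00677 to 0.256.

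The balance of Cd4 to Cd8a was read as a ratio of RPKM within each mouse, which does not depend on the depth of the library. It was 0.675, 0.488, 0.513, 0.656 and 0.654 in XXF F1 to F5 and 0.450, 0.467, 0.560 and 0.775 in XYF F6 to F9. In males it was 0.746, 0.906, 1.33, 1.46 and 0.961 in XXM 2, 5, 6, 7 and 8, and 1.08, 1.34, 0.847, 1.06 and 0.714 in XYM 12, 13, 15, 16 and 9. Each XXM mouse had a higher ratio than each XXF mouse, and XYF F9 and XYM 9 crossed over in the XY groups.

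The log2 ratio was 0.82 higher in XXM than in XXF, a 1.77-fold difference (permutation p = 0.00794, exact and two-sided, which no arrangement of these groups can go below, adjusted p = 0.0298 over the 30 ratio tests). It was 0.84 higher in XYM than in XYF, or 1.80-fold (exact p = 0.0238, adjusted p = 0.0595), and 0.83 higher in males over both (exact p = 9.45e-05, adjusted p = 0.00142). With XYF F6, F7 or F8 or XYM 12, 13, 15 or 16 left out, which also leaves fewer permutations, the difference in XY mice stayed between 0.73 and 0.90 with an adjusted p between 0.124 and 0.143. Between XX and XY mice the ratio did not pass the threshold, with 0.11 in females (exact p = 0.603), 0.09 in males (exact p = 0.746) and 0.10 over both (exact p = 0.522).

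With Cd8b1 in place of Cd8a the difference was larger, at 1.12 in XX mice (exact p = 0.00794, adjusted p = 0.0298), 1.21 in XY mice (exact p = 0.00794, adjusted p = 0.0298) and 1.17 over both (exact p = 3.15e-05, adjusted p = 0.000945). The ratio of the 2 chains of CD8 was tested too. Cd8a to Cd8b1 averaged 0.460 ± 0.0389 in XXF (SD, n = 5), 0.421 ± 0.0356 in XYF (SD, n = 4), 0.572 ± 0.111 in XXM (SD, n = 5) and 0.544 ± 0.0491 in XYM (SD, n = 5), and its log2 value was 0.33 higher in males over both (exact p = 0.00126, adjusted p = 0.0126). Taken apart, the difference was 0.30 in XX mice, which did not pass (exact p = 0.111, adjusted p = 0.208), and 0.37 in XY mice (exact p = 0.0159, adjusted p = 0.0476), or 0.38 without both XYF F9 and XYM 9, with fewer permutations (adjusted p = 0.127). The 8 dendritic cell markers, in a cell type that also transcribes Cd8a and Cd4, summed to 35.9 to 44.7 RPKM in XXF, 40.4 to 56.8 in XYF, 68.8 to 96.0 in XXM and 54.6 to 85.4 in XYM. Itgax was their most abundant gene averaged over all mice, though Siglech was in XXM (22.4 against 17.8 RPKM), and none was at 0. Of the 8, 4 were called higher in males over both (Siglech, Flt3, Clec10a and Clec9a), against 1.96% of all genes. The count was 4 in XX mice and 3 in XY mice, where 1.30% and 7.63% of all genes were called higher. The part of these markers in the coreceptor ratios was not tested.

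Each coreceptor was also set against Cd3e, which all alpha-beta T cells carry. Cd8a to Cd3e was 0.386 ± 0.0503 in XXF (SD, n = 5), 0.418 ± 0.0313 in XYF (SD, n = 4), 0.295 ± 0.0775 in XXM (SD, n = 5) and 0.407 ± 0.0421 in XYM (SD, n = 5). The log2 difference was -0.50 between XXM and XYM (exact p = 0.0238, adjusted p = 0.0595) and -0.31 between XX and XY over both (exact p = 0.00976, adjusted p = 0.0325), of which the female part was -0.12 (exact p = 0.294, adjusted p = 0.42), while -0.42 between XXM and XXF did not pass (exact p = 0.0635, adjusted p = 0.127). Neither -0.04 between XYM and XYF (exact p = 0.651, adjusted p = 0.75) nor -0.23 between males and females over both (exact p = 0.0532, adjusted p = 0.123) passed. With any 1 of the 5 XYM mice left out, which leaves fewer permutations, the difference between XXM and XYM was -0.46 to -0.54 with an adjusted p between 0.127 and 0.143. Cd4 to Cd3e was 0.234 ± 0.0606 in XXF (SD, n = 5), 0.233 ± 0.0477 in XYF (SD, n = 4), 0.305 ± 0.0626 in XXM (SD, n = 5) and 0.407 ± 0.0823 in XYM (SD, n = 5). The log2 difference between XYM and XYF was 0.81 (exact p = 0.00794, adjusted p = 0.0298), with no overlap between these groups, and between XXM and XXF it was 0.40, which did not pass (exact p = 0.135, adjusted p = 0.238). Over both it was 0.60 higher in males (exact p = 0.00205, adjusted p = 0.0154). For XXM against XYM the log2 difference was -0.42 (exact p = 0.0635, adjusted p = 0.127).

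**Figure D3:**
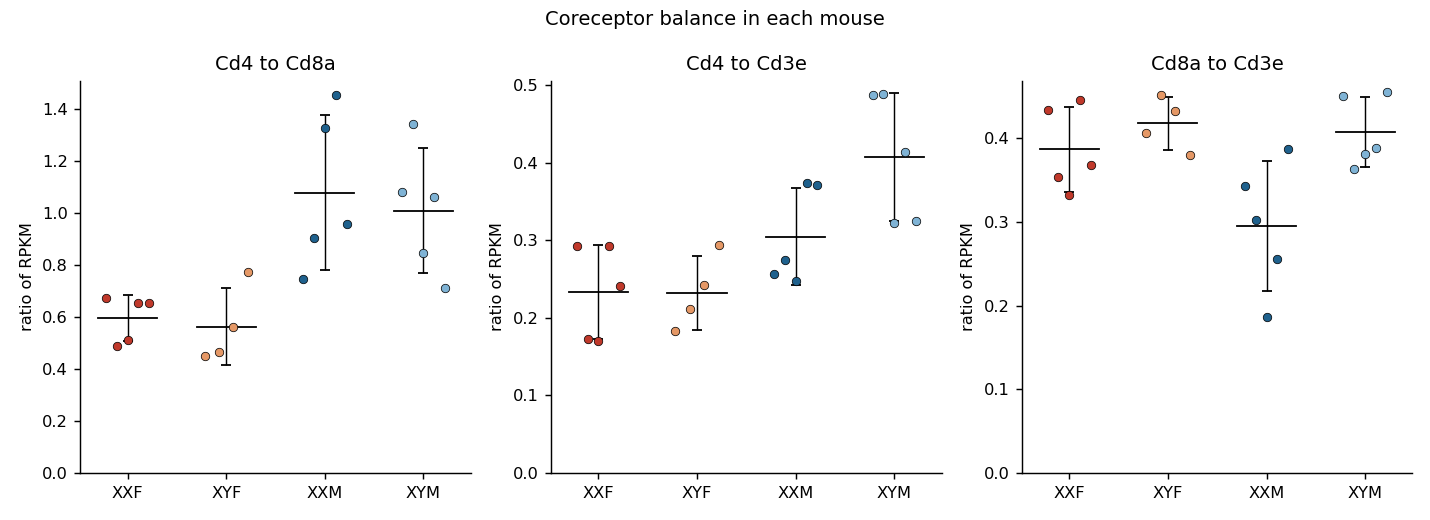
Ratio of RPKM within each mouse (vertical axis, starting at 0) for Cd4 to Cd8a, Cd4 to Cd3e and Cd8a to Cd3e, with points for mice, lines for group means and bars for SD. Cd4 to Cd8a is higher in both male groups, Cd4 to Cd3e is highest in XYM, and Cd8a to Cd3e is lowest in XXM.

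Further genes of proximal T cell receptor signalling were taken from a list of 35, all of which passed the filter. In XX mice 13 of the 35 were lower in males and none higher, with a median log2 difference of -0.27, where 2.91% of all genes were called lower and 1.30% higher. Among the largest were Themis (-1.92, adjusted p = 0.000125 in limma), a T cell regulator of LCK and phosphatase signalling, the receptor-associated adaptor Trat1 (-1.79), the adaptor Skap1 (-1.34) and the protein kinase C theta gene Prkcq (-1.34). In XY mice 5 were lower, among them Trat1 (-1.06) and Skap1 (-0.82), and 6 were higher, among them Malt1 (1.22), Pag1 (0.75) and Tec (0.71), with a median of 0.25, where 8.13% of all genes were called lower and 7.63% higher. The count higher in XYM was 4 to 7 with each mouse left out and 4 to 12 over all settings. Malt1 and Tec also act below the B cell receptor, so the list is not particular to T cells. Between XXM and XYM 3 were lower in XXM, Themis (-1.04, adjusted p = 0.0602), Plcg1 (-0.96) and Ubash3a (-0.71). Between XXF and XYF 2 were higher in XXF, among them Trat1 (0.84), where 0.67% of all genes were called higher. Ubash3a, a negative regulator of the receptor, was the gene of this list called for the interaction (1.12, adjusted p = 0.0503). With each mouse left out, 2 to 8 were lower in XYM than in XYF (2 without XYF F7 or XYM 9, 8 without XYF F9), 1 to 5 lower in XXM than in XYM (5 without XYM 9), 0 to 9 higher in XXF than in XYF (9 without XYF F7) and 0 to 16 called for the interaction (16 without XYM 9). Ptprc, the phosphatase CD45 of all leukocytes, was the most abundant of the list averaged over all mice, though below Ptpn6 in XXM (322 against 334 RPKM), and was not called in any comparison.

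Genes of a T cell identity list were counted in the same way. How far each of them is particular to T cells among splenocytes was not tested. Of 22 T cell identity genes, 15 were called lower in XXM than in XXF and 0 higher, with a median log2 difference of -1.31. Of all genes 2.91% were called lower there and 1.30% higher. In XYM against XYF 8 of the 22 were lower and 2 higher, with a median of -0.50 and 12 not called. The shares of all genes there were 8.13% and 7.63%, so that the 2 higher genes were near the share of all genes. The transcription factors Lef1 (-1.87) and Tcf7 (-1.87) and the surface glycoprotein Thy1 (-1.70) led in XX mice, followed by Cd226 (-1.66) and Cd96 (-1.57). The constant regions of the receptor beta chain, Trbc1 (-1.25) and Trbc2 (-1.20), led in XY mice, while Il2rb (0.69) and Ets1 (0.66) were higher there. The count of genes lower in XYM was 14 without XYF F9, 6 without XYF F7 and 5 with quantile normalization. The summed level of the list was 2656, 3186, 2962, 2726 and 3181 RPKM in XXF F1 to F5, 2326, 2870, 2454 and 1353 in XYF F6 to F9, 1567, 1770, 1807, 1589 and 1548 in XXM 2, 5, 6, 7 and 8, and 1844, 1612, 2030, 1999 and 1145 in XYM 12, 13, 15, 16 and 9. The female mice other than XYF F9 were above all males. Averaged over all mice Ms4a4b was the most abundant gene of the list, but Cd2 was in XXM (292 RPKM) and Ets1 in XYM (250 RPKM). Between XXM and XYM, Cd28 (-0.79), Tcf7 (-0.78) and Il7r (-0.74) were lower in XXM, against 1.83% of all genes. Between XXF and XYF, Lef1 (0.77) and Thy1 (0.69) were higher in XXF, against 0.67% of all genes. Cd28, the main costimulatory receptor, was called for the interaction (1.35, adjusted p = 0.0546), as were 0.0846% of all genes. These smaller counts also hung on single mice: 0 to 6 were lower in XXM than in XYM (6 without XYM 9), 0 to 8 higher in XXF than in XYF (8 without XYF F7) and 0 to 13 called for the interaction (13 without XYM 9).

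Genes tied to each lineage were counted in shorter lists. Of all genes 2.91% were called lower in XXM than in XXF and 8.13% in XYM than in XYF. Of 8 CD4 lineage genes, 2 were lower in XXM than in XXF, the helper T cell ligand Cd40lg (-1.58) and the folate receptor Izumo1r (-1.12), and 0 were called between XYM and XYF. Cd40lg was 0.87 higher in XXF than in XYF (adjusted p = 0.0524 in limma), where 0.67% of all genes were called higher. This call was lost without XXF F1, XXF F4, XXF F5, XYF F6 or XYF F9 (adjusted p of at most 0.202). Cd40lg was also called for the interaction (1.45, adjusted p = 0.0877), where 3 genes were called without XYM 9 and 0 without XYF F9. Cd40lg is X-linked, and the paper cites expression of CD40L from both X chromosomes in T cells of female lupus patients. For this gene the number of X chromosomes and CD4 T cell signal cannot be told apart. Of 6 CD8 lineage genes, 4 were lower in XXM than in XXF, led by the integrin Itgae (-1.15) and Crtam (-1.11), and 3 were lower in XYM than in XYF, led by the granzyme Gzmk (-1.68), but 1 without XYF F7, XYF F8 or XYM 9. Averaged over all mice Zbtb7b and Nkg7 were the most abundant genes of these lists, but Izumo1r was above Zbtb7b in XXF (25.1 against 23.2 RPKM) and XYF (21.2 against 20.4 RPKM). The summed level of the CD4 lineage list averaged 97.8 ± 12.1 RPKM in XXF (SD, n = 5), 88.8 ± 16.8 in XYF (SD, n = 4), 67.9 ± 10.02 in XXM (SD, n = 5) and 91.2 ± 19.3 in XYM (SD, n = 5). The mean was lowest in XXM, as for Cd4 itself, but XYM 9 (62.8 RPKM) lay inside the XXM range (57.5 to 81.2 RPKM). Between XXM and XYM all 8 genes were below 0 and 0 were called. For the CD8 lineage list the summed level averaged 195 ± 22.9, 145 ± 32.2, 136 ± 12.9 and 117 ± 27.4 RPKM in the same groups. Nkg7, which NK cells also transcribe, made up most of this sum (87.7 RPKM in XXM and 73.7 in XYM). Gzmk, Crtam and Itgae were lowest in XXM, but between XXM and XYM 0 of the 6 genes were called. There 3 of the 6 were below 0 and 3 above 0, with a median log2 difference of 0.04.

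Across the 19 mice the members rose and fell together, which in part restates the differences between groups. Pearson's r between pairs of members had a median of 0.92 over 45 pairs, from 0.51 for Cd4 with Lat to 0.99 for Cd8a with Cd8b1, and a median of 0.83 after group means were removed. Within groups Cd4 was the least tied member, with r of 0.14 with Cd3d and 0.54 with Cd8a, while Cd8a and Cd8b1 kept 0.92. The 10 genes outside the members closest to the mean of Cd3d, Cd3e and Cd3g over 19 mice were Skap1 (r = 0.99), Ms4a4b (0.98), Trac (0.98), Trbc2 (0.97), Thy1 (0.97), Bcl11b (0.97), Trbv1 (0.97), Klk8 (0.96), Trbc1 (0.96) and Trbv13-1 (0.96). Among all 14186 genes, Cd4 ranked 1008 in this order (r = 0.67) and Cd8a ranked 53 (r = 0.93). These values describe 19 libraries that differ in depth, group and the level of other cell type markers, and carry no p.

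Other cell types also moved with gonadal sex and stand here beside the T cell values. Of all genes 1.30% were called higher in XXM than in XXF. In XYM against XYF 7.63% of all genes were called higher and 8.13% lower. Of 10 B cell genes, 2 were higher in XXM than in XXF (Pax5, 1.0, and Ebf1, 0.80) and 9 were higher in XYM than in XYF, led by Cd22 (1.18), Fcer2a (1.13), Ebf1 (1.0), Cr2 (0.91) and Blk (0.84). Their summed level was 2629 to 3216 RPKM in XXF, 1430 to 2820 in XYF, 3872 to 4647 in XXM and 2444 to 4090 in XYM, and Cd79b was the most abundant. In the opposite direction, 0 of 9 erythroid genes were called between XXM and XXF by limma (median -0.87), and all 9 were lower in XYM than in XYF, among them Hba-a1 (-3.22), Hba-a2 (-2.45), Hbb-bs (-2.45) and Klf1 (-2.25), although the methods state that red cells were lysed. The erythroid list summed to 15934 to 36124 RPKM in XXF, 19178 to 57309 in XYF, 8932 to 18208 in XXM and 1955 to 18479 in XYM, with Hbb-bs the most abundant. No gene of these lists was at 0 in every mouse. With values rescaled to reads outside erythroid, neutrophil and immunoglobulin genes, the members called lower numbered 10 in XX mice and 9 in XY mice. The part of the B cell and neutrophil markers in the lower T cell receptor values was not tested.

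**Figure D4:**
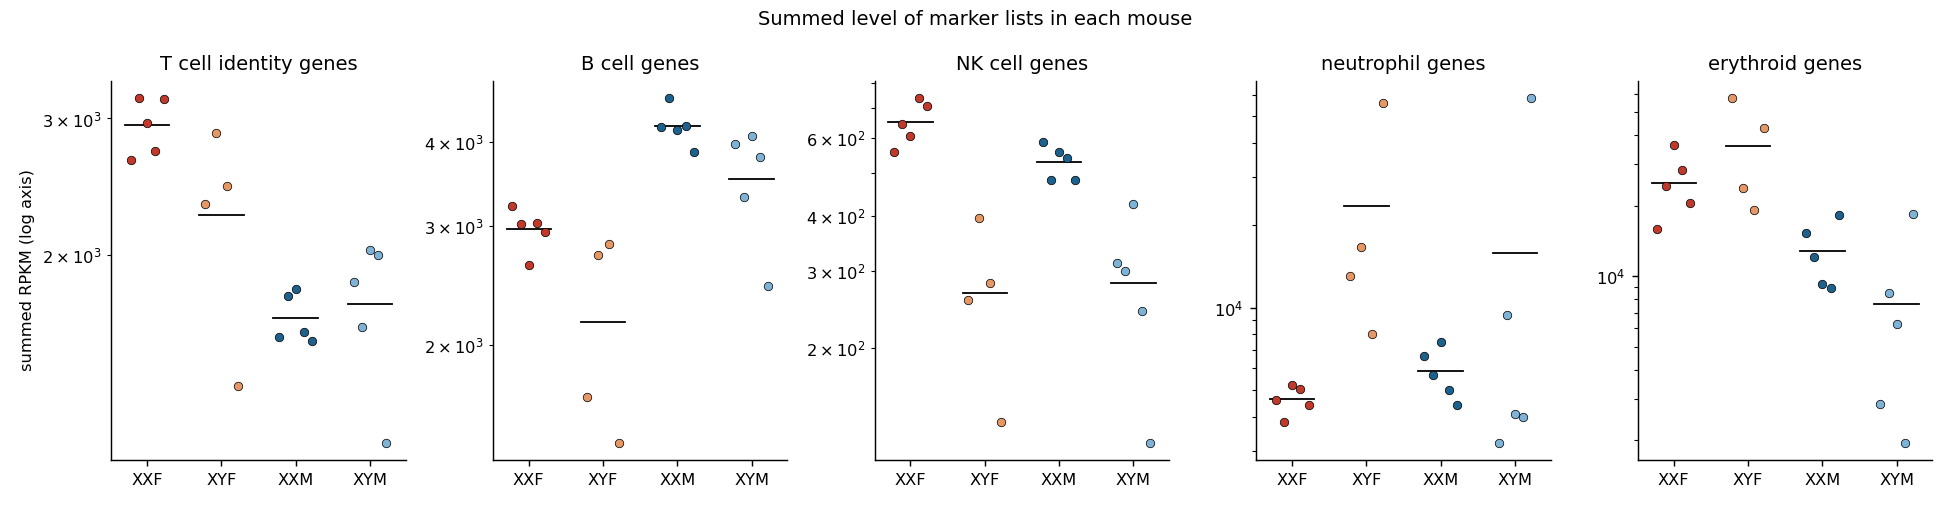
Summed RPKM of the T cell identity, B cell, NK cell, neutrophil and erythroid lists (vertical axes, log scale) in every mouse, with points for mice and lines for group means. T cell identity levels are lower in both male groups, B cell levels are highest in XXM, and XYF F9 and XYM 9 have the highest neutrophil sums, 56182 and 58274 RPKM.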

How the data were processed

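Alignment to mm10 was by Subread and counting by featureCounts, and the authors scaled counts by library size and gene length. The deposited unit is log2(RPKM + 1), to which 0.0001 was added. Library kits are given differently in the labels (NEBNext Ultra) and the methods (KAPA stranded), and versions of the tools and the strand setting were not given in the sources used here. Whole reads were recovered from the steps between values for all 21317 genes with a read (tolerance 0.05 of a read). Pairs of mice within a group differed by a chi-square per gene of at least 20.7, so the libraries of a group were not copies of each other.

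Group means were modelled with limma 3.58.1 (R 4.3.3) on the log2 values of 14186 genes, those at an RPKM of 0.5 or more in 4 or more mice, with a spread that follows mean expression, and p-values were adjusted by the Benjamini-Hochberg method. The script was tested on simulated data. Ratios of RPKM, without an added constant, were compared by exact two-sided permutation of mice between groups, within the other factor for averages over both, and adjusted over 5 ratios in 6 comparisons (Python 3.11.15); an adjusted p below 0.1 counted as passing. Replicate labels are not shared between groups, so no pairing was used.

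Named were all 10 members, up to 5 called genes per list and comparison by size, each list's most abundant gene and the 10 genes most correlated with the mean of Cd3d, Cd3e and Cd3g. The members, the 14 marker lists and the tests were chosen with earlier results of these data known. Alternatives were other added constants, filters, scalings and thresholds, array weights, limma-voom on recovered reads, and each mouse left out. Leaving out XYF F9 and XYM 9 together, and rescaling to reads outside erythroid, neutrophil and immunoglobulin genes, were added after seeing the data.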

Additional observations from a re-analysis of the deposited data

Results flagged for a closer look

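No value of the 10 members or the 5 ratios was marked as far from the rest of its group. In 60 sets of values (15 quantities in 4 groups) the gap of the highest or lowest mouse to its neighbour never exceeded the critical share of the range, where chance alone would mark about 1 set in 20. The low values of XYF F9 and XYM 9 did not reach it either. In groups of 4 and 5 mice this rule marks little, so it does not show that these mice lay close to the rest. No member passed the test of a difference between the sex chromosome effects in females and males under the main settings, and 4 did with array weights.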

How the results depend on the processing

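The count of members called lower was 10 in XXM against XXF under each alternative run, 6 to 9 in XYM against XYF (8 with all mice and the main settings) and 9 or 10 over both. It was 0 for XX against XY over both under each. Between XXM and XYM, 3 members were called, but 1 with no filter, 1 with the compared groups alone, 0 at an adjusted p threshold of 0.05, and 0 to 3 with each mouse left out. Between XXF and XYF, 0 were called, and 0 to 1 with each mouse left out (1 without XYF F7). For the interaction 0 were called, but 4 with array weights, 3 without both XYF F9 and XYM 9, and 0 to 6 with each mouse left out.

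The Cd4 to Cd8a log2 difference of 0.82 in XX mice ranged from 0.70 to 0.95 with each mouse left out and stayed past the threshold, as did the one over both (0.77 to 0.92). In XY mice it ranged from 0.73 to 1.01 and missed the threshold in 7 of these fits. Between XXM and XYM it was 0.09 and changed sign without both XYF F9 and XYM 9 (-0.0318). With each mouse left out it ranged from -0.0342 to 0.21, and was below 0 without XXM 6, XXM 7 or XYM 9.

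Single members with small values turned as well. Cd8b1 between XXF and XYF was -0.0390 without both mice and -0.0390 to 0.41 with each mouse left out. Cd4 between XYM and XYF was -0.0173 with median ratio rescaling and -0.0647 to 0.28 with each mouse left out. The interaction of Lat was -0.0255 with array weights, -0.13 without both mice and -0.24 to 0.25 with each mouse left out. The causes were not tested. Counts of the lists moved more than 1.5 times mainly where few genes were called. For the T cell identity list, 0 to 13 genes were called for the interaction and 6 to 14 lower in XYM with each mouse left out, against 15 lower in XXM than in XXF in each such fit. The groups held 4 or 5 mice, and RPKM is a share of the library.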

Other observations

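NK cells share several receptors and cytotoxic genes with CD8 T cells. Of 10 NK cell genes, 8 were higher in XXF than in XYF, against 0.67% of all genes, and 5 higher in XXM than in XYM, against 1.13%. Gzma led both (1.73 and 1.40). In XXM against XXF 1 was higher (Klra8, 0.89) and 1 lower (Klrd1, -0.74). The Klra8 call was lost with XXF F1, XXF F2, XXM 6 or XXM 7 left out, and the Klrd1 call with any 1 of 10 mice left out (XXF F2, F3, F4 and F5, XXM 5, 6, 7 and 8, XYM 13 and XYM 16). With each mouse left out the count higher in XXF than in XYF was 3 to 9 (3 without XYF F9) and that in XXM against XYM 1 to 7 (1 without XXM 2, XYM 13 or XYM 16). In XYM against XYF 2 were higher (Klra8, 0.85, and Klrk1, 0.68; 4 without XYM 9, 1 without XYF F6, XYF F9 or XYM 12), and 8 of the 10 were above 0. The list summed to 557 to 738 RPKM in XXF, 136 to 395 in XYF, 482 to 587 in XXM and 122 to 426 in XYM, and Gzma was the most abundant. Gamma-delta T cells, which use CD3 without CD4 or, for the most part, CD8, gave no call: of 6 genes tested, 0 passed in any comparison by limma, and Trdc, the most abundant, averaged 26.8 RPKM in XXF, 21.2 in XYF, 19.3 in XXM and 19.1 in XYM.

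Of 8 proliferation genes, 5 were lower in XYM than in XYF (Birc5, -1.59, the largest), but 1 to 8 with each mouse left out (1 without XYF F6, 8 without XYF F7 or XYM 9), and 0 were called in XX mice. Pcna was the most abundant. Of all genes 8.13% were called lower in XYM than in XYF and 2.91% in XXM than in XXF. Of 6 platelet genes, 5 were lower in XYM than in XYF (Gp9, -1.02, the largest; 1 without XYM 16) and 1 lower in XXF than in XYF (Gp9, -0.85; 3 without XYF F8, 2 without XYF F7, XYM 16 or XYM 9, 0 without XXF F5, XYF F6 or XYF F9), with Ppbp the most abundant. Of 7 plasma cell genes, 2 were lower in XXF than in XYF (Tnfrsf17, -0.92, and Derl3, -0.78), against 0.71% of all genes, but 0 without XYF F9. In XYM against XYF 1 was lower (Tnfrsf17, -0.82), and Jchain was the most abundant. Of 9 macrophage and monocyte genes, 3 were lower in XYM than in XYF (C1qa, -1.39, Cd14, -1.20, and Fcgr1, -0.96; 6 without XYF F8) and 1 in XXM than in XXF (Fcgr1, -0.86; 4 without XYF F7, 2 without XXM 7 or XXM 8), with Lyz2 the most abundant. Of 8 neutrophil genes, 2 were lower in XX than in XY mice over both (Mpo, -1.70, and Elane, -1.47), against 1.21% of all genes. The count was 0 without XYF F9 and 6 without XYM 15, and S100a9 was the most abundant.

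Transcripts were measured in mixed splenocytes, so the values say nothing of cell numbers, surface protein or signalling. Whether sequencing runs differed between groups was not given.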
